A study of Rattus norvegicus with 12 samples.

Results

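The 82 genes described here encode the nuclear subunits of the oxidative phosphorylation complexes, and were taken from 25252 genes in an RNA-seq table of rat dorsal root ganglia. Members were protein-coding genes chosen by symbol alone. Symbols beginning with Ndufa, Ndufb, Ndufc, Ndufs or Ndufv were assigned to complex I (37 genes), Sdha to Sdhd to complex II (4 genes), Uqcr to complex III (6 genes), Cox4 to Cox8 to complex IV (17 genes) and Atp5 to complex V, the ATP synthase (18 genes). Assembly factors of the Ndufaf and Sdhaf series were left out. The symbol rule also took in a few genes that are not plain subunits, such as Cox7a2l, a factor of respiratory supercomplexes, and Ndufv3-ps1, which is named as a pseudogene but annotated as protein coding. Ndufa4, placed in complex I by its symbol, is counted today with complex IV. Atp5s, which RefSeq now names Dmac2l, and Atp5sl are counted in complex V by their symbols alone.

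Dorsal root ganglia, the clusters of sensory neuron cell bodies beside the spinal cord, came from 12 wild-type Sprague Dawley rats in 3 groups of 4. Vehicle rats received saline with 0.1% Tween 20 and 1% DMSO. This carrier is recorded here for the vehicle group only, so whether rats given cisplatin alone also received it is not known. Cisplatin, a platinum drug used against tumours, was injected intraperitoneally at 3 mg/kg on days 0, 7 and 14 in the second group. The third group, called the combination group below, received the same cisplatin and, from day -1 to day 20, daily CYM-5478, which activates S1P2, a receptor for sphingosine 1-phosphate. Its dose is 0.1 mg/kg in the sample labels and 1 mg/kg in the protocol. Both latter groups carried cisplatin and no group had CYM-5478 without it, so what CYM-5478 does by itself and what it does to a cisplatin response cannot be told apart. The labels call the samples biological replicates and give neither sex nor age.

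Oxidative phosphorylation passes electrons from NADH (complex I) and succinate (complex II) through complexes III and IV to oxygen, and the proton gradient that complexes I, III and IV build drives the ATP synthase. Apart from complex II, each complex joins subunits encoded in the nucleus to a few encoded in mitochondrial DNA. Sensory neurons rely on it to power ion pumping and transport along very long axons, and cisplatin is known to bind mitochondrial as well as nuclear DNA.

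Values are FPKM, fragments per length of transcript relative to all mapped fragments, summed over the transcripts of a gene and scaled between libraries. Because FPKM is per length, levels of different genes can be set side by side, but only roughly. The program behind the FPKM is not given, so how it treated short transcripts is not known. Of the 82 members, 75 had a mean of 0.5 FPKM or more and were tested with 16753 genes in all (limma on log2(FPKM + 0.5), Benjamini-Hochberg adjusted p under 0.05). Log2 changes are on that scale, which understates changes of low genes. Complex I had 35 tested members, complex II 4, complex III 6, complex IV 14 and complex V 16. The deposited FPKM summed to 593 to 676 in units of 1000 FPKM per library, with the 4 cisplatin libraries highest. Absolute depth is unknown. Relative depth, read from the steps between low values, ran from 0.901 to 1.54 times that of vehicle replicate 1. The pan-neuronal marker genes, which identify the tissue, were all detected (20 of 20, summed level 6010 to 8699 FPKM in vehicle), with none listed at 0.

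Promoters of some members described below, called and uncalled, are shown first. They are as RefSeq gives them on the GRCr8 assembly, from 250 bases before to 50 bases after the gene start. The first 3 belong to the genes of the c subunit of the ATP synthase, whose proteins are identical once imported and whose shares are compared between the groups below. The others belong to Ndufs1, a core subunit of complex I, and Atp5b, the catalytic beta subunit of the ATP synthase. Each is written 5′ to 3′ in the direction of the gene, and capitals mark motif matches on either strand.
Atp5g1 (Atp5mc1), chr10:81523296-81523595, minus strand: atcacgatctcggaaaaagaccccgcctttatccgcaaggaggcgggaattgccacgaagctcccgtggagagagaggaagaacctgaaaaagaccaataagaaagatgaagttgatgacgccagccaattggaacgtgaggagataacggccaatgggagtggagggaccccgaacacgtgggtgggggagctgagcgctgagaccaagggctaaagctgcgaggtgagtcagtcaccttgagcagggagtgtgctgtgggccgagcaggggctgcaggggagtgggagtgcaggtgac
Atp5g2 (Atp5mc2), chr7:135678169-135678468, minus strand: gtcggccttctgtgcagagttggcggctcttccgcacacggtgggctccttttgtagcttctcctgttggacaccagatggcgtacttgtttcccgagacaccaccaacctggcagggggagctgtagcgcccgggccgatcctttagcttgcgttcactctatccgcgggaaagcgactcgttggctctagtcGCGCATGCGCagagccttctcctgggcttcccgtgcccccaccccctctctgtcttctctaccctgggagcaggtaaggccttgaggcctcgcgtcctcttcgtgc
Atp5g3 (Atp5mc3), chr3:79220615-79220914, minus strand: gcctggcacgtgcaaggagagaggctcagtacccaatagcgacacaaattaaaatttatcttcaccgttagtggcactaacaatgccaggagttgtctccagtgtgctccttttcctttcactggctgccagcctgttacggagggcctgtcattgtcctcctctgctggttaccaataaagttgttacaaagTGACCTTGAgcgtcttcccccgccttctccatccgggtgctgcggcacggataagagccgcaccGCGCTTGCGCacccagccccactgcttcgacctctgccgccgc
Ndufs1, chr9:72073556-72073855, minus strand: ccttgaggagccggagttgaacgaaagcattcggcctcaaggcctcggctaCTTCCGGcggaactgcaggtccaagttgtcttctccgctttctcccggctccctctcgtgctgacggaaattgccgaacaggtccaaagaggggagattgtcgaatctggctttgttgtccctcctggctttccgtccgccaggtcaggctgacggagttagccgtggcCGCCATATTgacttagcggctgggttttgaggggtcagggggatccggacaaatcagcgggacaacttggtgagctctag
Atp5b (Atp5f1b), chr7:1099808-1100107, plus strand: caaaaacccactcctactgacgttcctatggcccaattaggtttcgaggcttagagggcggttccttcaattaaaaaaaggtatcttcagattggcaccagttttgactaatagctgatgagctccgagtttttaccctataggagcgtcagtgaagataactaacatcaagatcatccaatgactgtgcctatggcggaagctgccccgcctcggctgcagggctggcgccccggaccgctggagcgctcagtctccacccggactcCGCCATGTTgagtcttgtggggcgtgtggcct

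The motifs looked for are bound by regulators known for nuclear mitochondrial genes. They were the palindromic NRF1 motif, the ETS site used by GABP (CCGGAAG), YY1 (AANATGGCG, whose letters hold an ATG and can share 3 letters with an ETS match) and the oestrogen-related receptors, ERR (TNAAGGTCA). Of 79 distinct member names, 68 matched a RefSeq promoter, 53 by symbol and 15 by synonym. NRF1 letters were found in 12 of the 68 (17.6%), against 4.71% of all 27457 promoters. The ETS letters were in 20 (29.4%, against 9.22%), the YY1 letters in 15 (22.1%, against 3.33%) and the ERR letters in 2 (2.94%, against 1.15%). Most YY1 matches began after the gene start, from base 5 in Ndufs4 to base 37 in Atp5j2. Whether the ATG in them is a start codon was not examined. In the sequences above, Atp5g2 holds an NRF1 match and Atp5g3 an ERR and an NRF1 match. Ndufs1 holds an ETS and a YY1 match on the reverse strand. Atp5b holds a reverse YY1 match at base 19 after the gene start, whose letters read forward also hold an ATG. Atp5g1 holds no match to these letters in this window. A match describes the letters only.

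In vehicle ganglia the members spanned a wide range of levels, and complexes IV and V stood highest in FPKM. The median level of tested members was 76.2 FPKM in complex I, 78.5 in complex II, 79.1 in complex III, 302 in complex IV and 218 in complex V. Atp5e, the small epsilon subunit of the ATP synthase, was the highest of all at 566 ± 42.4 FPKM (SD, n = 4), and Cox6c of complex IV reached 527 ± 37.1. In complex I the highest was Ndufa1, a small membrane-arm subunit, at 188 ± 16.9 FPKM, and in complex II it was Sdhb, the iron-sulfur subunit, at 90.2 ± 3.49. Uqcrh, the hinge protein of complex III, stood at 320 ± 21.3 FPKM and its neighbour Uqcrq at 307 ± 27.7, a gap within the SD of either.

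**Figure D1:**
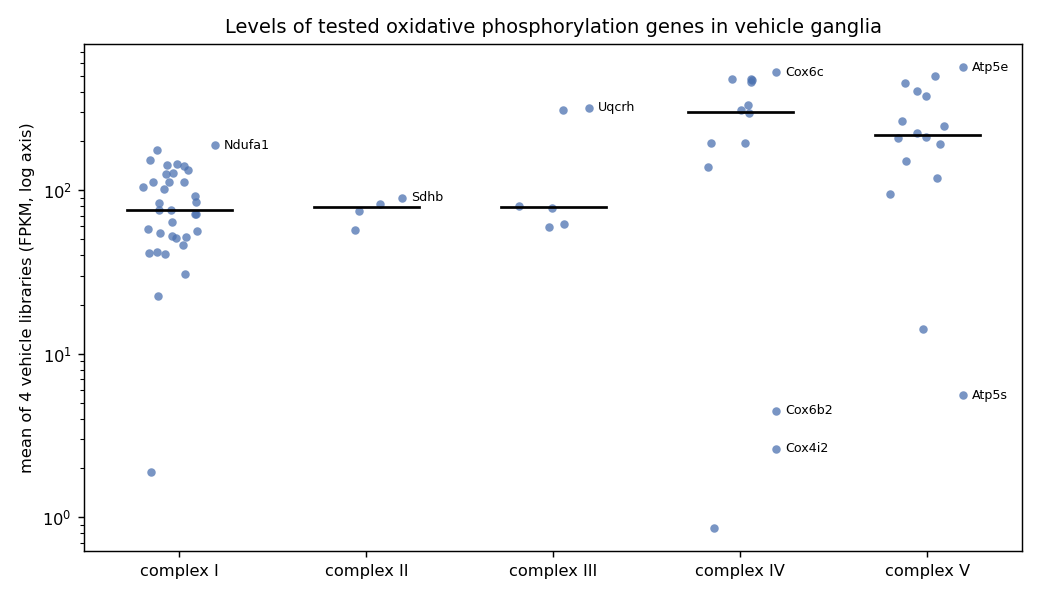
Mean FPKM of the 4 vehicle libraries (log axis) for the 75 tested members, 1 point per gene, by complex, with the median of each complex as a bar. Medians lie at 76.2 to 79.1 FPKM in complexes I to III and at 302 and 218 in complexes IV and V, and the low points of complex IV include Cox6b2 and Cox4i2.

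Genes for tissue-specific isoforms sat far below their widespread partners. Cox4i2, the isoform known from lung and hypoxic cells, made up 0.54% ± 0.133 (SD, n = 4) of the summed Cox4i1 and Cox4i2 FPKM in vehicle, 0.51% ± 0.163 in cisplatin and 0.504% ± 0.0994 in the combination group. Cox6b2, known from testis, made up 1.44% ± 0.521, 1.51% ± 0.764 and 1.59% ± 0.717 of Cox6b1 and Cox6b2. The groups overlapped for both shares. For cisplatin against vehicle the limma adjusted p was 0.932 for Cox4i2 (2.62 ± 0.739 and 2.52 ± 0.53 FPKM) and 0.636 for Cox6b2 (4.5 ± 1.7 and 5.18 ± 1.5 FPKM). Cox6b2 was highest in replicate 1 of each group, at 6.84, 7.35 and 7.88 FPKM.

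The heart and muscle isoforms Cox6a2 and Cox8b had vehicle means of 0.393 ± 0.265 and 0.596 ± 0.69 FPKM (SD, n = 4), below the tested range over all libraries, against 298 ± 10.5 for Cox6a1 and 469 ± 35.1 for Cox8a. Cox8c, a testis isoform, was listed at 0 in all 12 libraries, as were Atp5hl1, Ndufb4l1 and a second gene ID for Ndufa13. Atp5f1, which encodes the b subunit of the peripheral stalk, was listed at 0 in 11 libraries and at 0.0605 FPKM in combination replicate 4. These 7 members were not tested. Atp5f1 stood apart from the tested members of complex V, whose vehicle median was 218 FPKM. As the deposited table may hold part of the transcripts, a value listed at 0 does not show that a gene is silent in the ganglion.

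Cisplatin against vehicle, the comparison that asks what the drug changed in the ganglion, found 7 of 75 tested members lower and 0 higher. They were Ndufs1, Ndufa8 and Ndufa10 of complex I, Cox5a of complex IV, and Atp5b, Atp5d and Atp5g1 of the ATP synthase, and each was 14.1% to 23.8% lower on the fitted scale. The lower share, 9.33%, was near the 7.98% of all tested genes called lower, and 2.73% of all genes were called higher (10.7% in either direction). At an unadjusted p under 0.05, 15 members were lower (20%, against 16.7% of all genes) and 2 higher (2.67%, against 11.8%). By complex, 3 of 35 members of complex I, 0 of 4 of complex II, 0 of 6 of complex III, 1 of 14 of complex IV and 3 of 16 of complex V passed.

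The core of complex I that accepts electrons from NADH includes Ndufs1, the largest iron-sulfur subunit. It stood at 53.6, 60.6, 57 and 53.6 FPKM in vehicle replicates 1 to 4, at 43.2, 47.9, 48 and 39.9 in cisplatin, and at 54.7, 51.6, 56.8 and 50.4 in the combination group. All 4 cisplatin libraries lay below all others. Its log2 change with cisplatin was -0.33 (SE 0.069, limma adjusted p = 0.0206).

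Ndufa10 and Ndufa8 are accessory subunits of complex I, the former on the matrix face of its membrane arm and the latter on the side of the intermembrane space. Ndufa10 measured 67.1, 79.2, 70.6 and 69.7 FPKM in vehicle, 55.3, 59.5, 60.4 and 52.4 in cisplatin, and 64.5, 68.3, 68.4 and 65.3 in the combination group. The cisplatin libraries were again the lowest 4 of the 12, with a log2 change of -0.33 (SE 0.061, limma adjusted p = 0.0189). Ndufa8 measured 59.7, 77.3, 59.3 and 60.9 FPKM in vehicle, 49.3, 54.3, 48.9 and 42.4 in cisplatin, and 58.8, 54.2, 51.3 and 64.4 in the combination group. Cisplatin and vehicle did not overlap (log2 change -0.39, SE 0.1, limma adjusted p = 0.0349), while the combination group overlapped both.

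Among other nuclear core subunits of complex I, which bind its flavin and iron-sulfur clusters or its quinone, Ndufs3, Ndufs7, Ndufs8, Ndufv1 and Ndufv2 did not pass. The limma adjusted p was 0.31 for Ndufs3, 0.27 for Ndufs7, 0.126 for Ndufs8, 0.477 for Ndufv1 and 0.712 for Ndufv2. Ndufs8 had no overlap, at 79.5, 77.6, 69.3 and 76.3 FPKM in vehicle and 66.1, 68.1, 66.9 and 67.6 in cisplatin. Ndufa1 measured 182, 205, 168 and 199 FPKM in vehicle, 169, 194, 211 and 239 in cisplatin, and 178, 231, 218 and 209 in the combination group, which overlap throughout (adjusted p = 0.59). Ndufa4 measured 124, 141, 124 and 139, then 100, 127, 125 and 140, and 125, 143, 152 and 144 FPKM in the same order of groups, with overlap (log2 change -0.11, SE 0.098, adjusted p = 0.503).

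In complexes II to IV, Cox5a was the member that passed. Cox5a, a matrix-side subunit of cytochrome c oxidase, measured 188, 216, 185 and 183 FPKM in vehicle, 132, 160, 167 and 156 in cisplatin, and 178, 193, 199 and 169 in the combination group. Cisplatin lay below both other groups without overlap, and its log2 change against vehicle was -0.33 (SE 0.084, limma adjusted p = 0.0311).

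The ATP synthase members that fell belong to its catalytic head, central stalk and membrane ring. Atp5b, the catalytic beta subunit, measured 448, 480, 441 and 437 FPKM in vehicle, 353, 400, 417 and 383 in cisplatin, and 432, 444, 477 and 451 in the combination group. Cisplatin lay below the combination group and below vehicle without overlap, while the latter groups overlapped. Its log2 change with cisplatin was -0.22 (SE 0.063, limma adjusted p = 0.0473), the call nearest to the threshold. It was lost in 10 of the 12 fits that left out 1 library, with no filter (adjusted p = 0.0629), with no scaling (0.0506) and with the 8 libraries of the compared groups (0.0842). Atp5a1, the alpha subunit that alternates with beta in the head, missed it at 224 ± 11.3 and 196 ± 12.3 FPKM in the same order (SD, n = 4 each), at an adjusted p = 0.0642 by limma.

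Atp5d, the delta subunit of the central stalk, measured 211, 228, 209 and 197 FPKM in vehicle, 155, 177, 169 and 162 in cisplatin, and 183, 207, 222 and 190 in the combination group. Cisplatin was lowest in every library, with a log2 change of -0.35 (SE 0.071, limma adjusted p = 0.0202). Atp5g1, a gene of the c subunit that forms the membrane rotor, measured 119, 136, 107 and 110 FPKM in vehicle, 83.2, 103, 92.4 and 89.7 in cisplatin, and 114, 110, 120 and 121 in the combination group. The 4 cisplatin libraries lay below the other 8 (log2 change -0.36, SE 0.082, limma adjusted p = 0.0229).

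**Figure D2:**
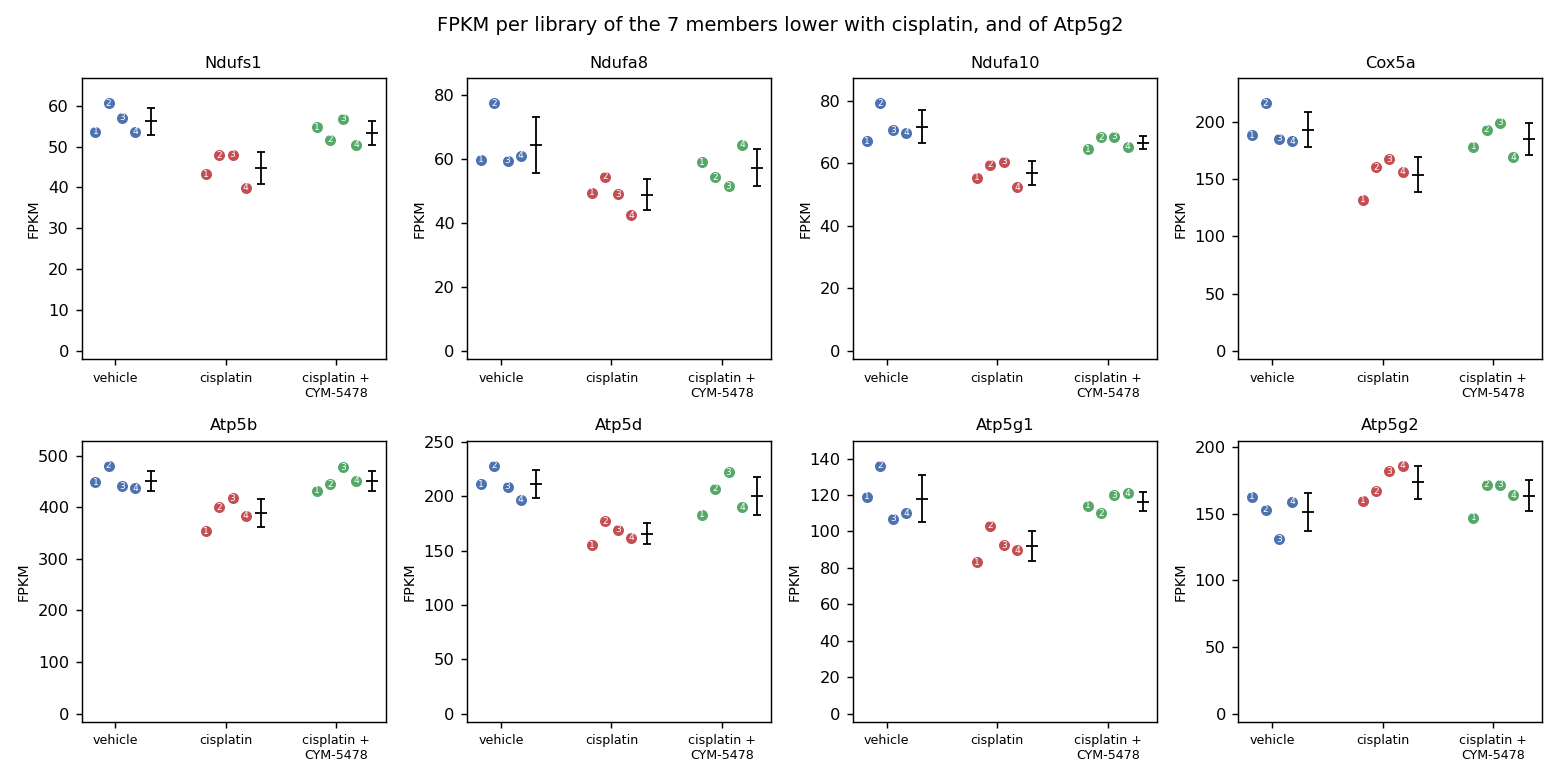
FPKM per library of the 7 members that were lower with cisplatin, and of Atp5g2, by group, with the replicate number in each point and the mean ± SD of 4 libraries beside it. For 6 of the 7 the cisplatin libraries lie below all others (Ndufa8 overlaps the combination group), while Atp5g2 has its highest values, 182 and 186, in cisplatin.

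These calls rested on few libraries and on the scaling. Without vehicle replicate 2, or without cisplatin replicate 4, 0 members passed limma's test, with 14 and 15 at an unadjusted p under 0.05. The same fits called 3 and 0 of all tested genes, so this loss is not particular to the members. The log2 changes of the 7 then ran from -0.31 to -0.19 and from -0.34 to -0.21. Over the 12 fits that each left out 1 library, the call was lost in 2 for Ndufs1, Ndufa10 and Atp5d, in 3 for Atp5g1, in 4 for Ndufa8 and Cox5a and in 10 for Atp5b. Without cisplatin replicate 1, Ndufs1, Ndufa10 and Atp5d were still called and Atp5i was called higher. With TPM, which also divides by the FPKM sum of a library, 26 members were lower and 0 higher, and of all genes 117 were higher and 3177 lower in place of 457 and 1337.

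Across all tested members, changes with cisplatin were small and went both ways. The median log2 change was -0.04, beside 0.019 over all tested genes, and 44 of 75 members (58.7%) lay below 0, against 46.2% of all genes. TPM moved both medians together, to -0.16 for the members and -0.093 for all genes. Vehicle and cisplatin libraries did not overlap for 11 members, all lower (14.7%, against 11.5% of all genes that were lower without overlap and 6.81% higher). Beside the 7 these were Ndufs8, Uqcrc1, Cox7a2l and Atp5a1.

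Summed levels of each complex overlapped between the 3 groups. Complex I summed to 3042 ± 212 FPKM in vehicle, 3062 ± 220 in cisplatin and 3137 ± 182 in the combination group (SD, n = 4 each). The sums were 304 ± 5.96, 293 ± 14.3 and 299 ± 10.1 FPKM for complex II. They were 907 ± 47.5, 880 ± 53.5 and 895 ± 74 for complex III, 3884 ± 265, 3959 ± 337 and 4105 ± 341 for complex IV, and 4024 ± 209, 4278 ± 399 and 4389 ± 342 for complex V. Rescaled to TPM, the cisplatin mean was the lowest of the 3 groups in all 5 complexes. As a share of all FPKM, the members held 2.03% in vehicle, 1.91% in cisplatin and 2.12% in the combination group.

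In complexes II and III no member passed. Sdhb measured 90.2, 94.2, 90.5 and 85.7 FPKM in vehicle and 76.7, 86.4, 87.6 and 81.2 in cisplatin, which overlap (log2 change -0.12, SE 0.052, limma adjusted p = 0.155). Uqcrc1, a core protein of complex III, measured 78.8, 86.2, 72.9 and 72.9 FPKM in vehicle, 58.9, 68.9, 71 and 71.2 in cisplatin, and 72.9, 78.1, 84.7 and 76.4 in the combination group. Cisplatin was lower without overlap, yet the change missed the threshold (log2 change -0.20, SE 0.076, limma adjusted p = 0.105).

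Uqcrh measured 334, 341, 295 and 310 FPKM in vehicle, 301, 290, 289 and 319 in cisplatin, and 286, 318, 330 and 324 in the combination group (log2 change with cisplatin -0.094, SE 0.066, limma adjusted p = 0.377). Uqcrc2, the other core protein, measured 59.7, 67.7, 62.8 and 59.3 FPKM in vehicle, 53.3, 60.9, 59.7 and 56.9 in cisplatin, and 62.7, 60, 62.2 and 58.7 in the combination group (-0.11, SE 0.056, adjusted p = 0.215). The groups overlapped for both.

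Other widespread subunits of complex IV, described next, gave no call. Cox4i1, which binds ATP on the matrix side, measured 461, 506, 465 and 484 FPKM in vehicle, 434, 511, 519 and 553 in cisplatin, and 453, 584, 576 and 555 in the combination group. Cox6a1 measured 298, 304, 284 and 307, then 248, 342, 293 and 362, and 271, 368, 399 and 305 FPKM in the same order of groups, and Cox6b1 measured 303, 354, 275 and 295, then 270, 394, 370 and 399, and 291, 408, 412 and 341. In all 3 genes replicate 1 was the lowest cisplatin and the lowest combination library, and the groups overlapped.

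Cox6c measured 530, 569, 479 and 532 FPKM in vehicle, 523, 548, 531 and 592 in cisplatin, and 501, 545, 541 and 562 in the combination group. Cox7a2 measured 332, 378, 296 and 326, then 325, 344, 347 and 362, and 305, 360, 327 and 384 FPKM, and Cox8a 460, 519, 438 and 457, then 402, 464, 482 and 434, and 421, 467, 524 and 488. These groups overlapped too. For cisplatin against vehicle the limma adjusted p was 0.66 for Cox4i1, 0.848 for Cox6a1, 0.357 for Cox6b1, 0.623 for Cox6c, 0.724 for Cox7a2 and 0.605 for Cox8a. Cox7a2l varied little, at 129, 144, 138 and 142 FPKM in vehicle, 126, 126, 126 and 128 in cisplatin, and 141, 135, 133 and 147 in the combination group. Cisplatin lay below both groups without overlap, by a log2 change of -0.12 against vehicle (SE 0.048, limma adjusted p = 0.116).

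**Figure D3:**
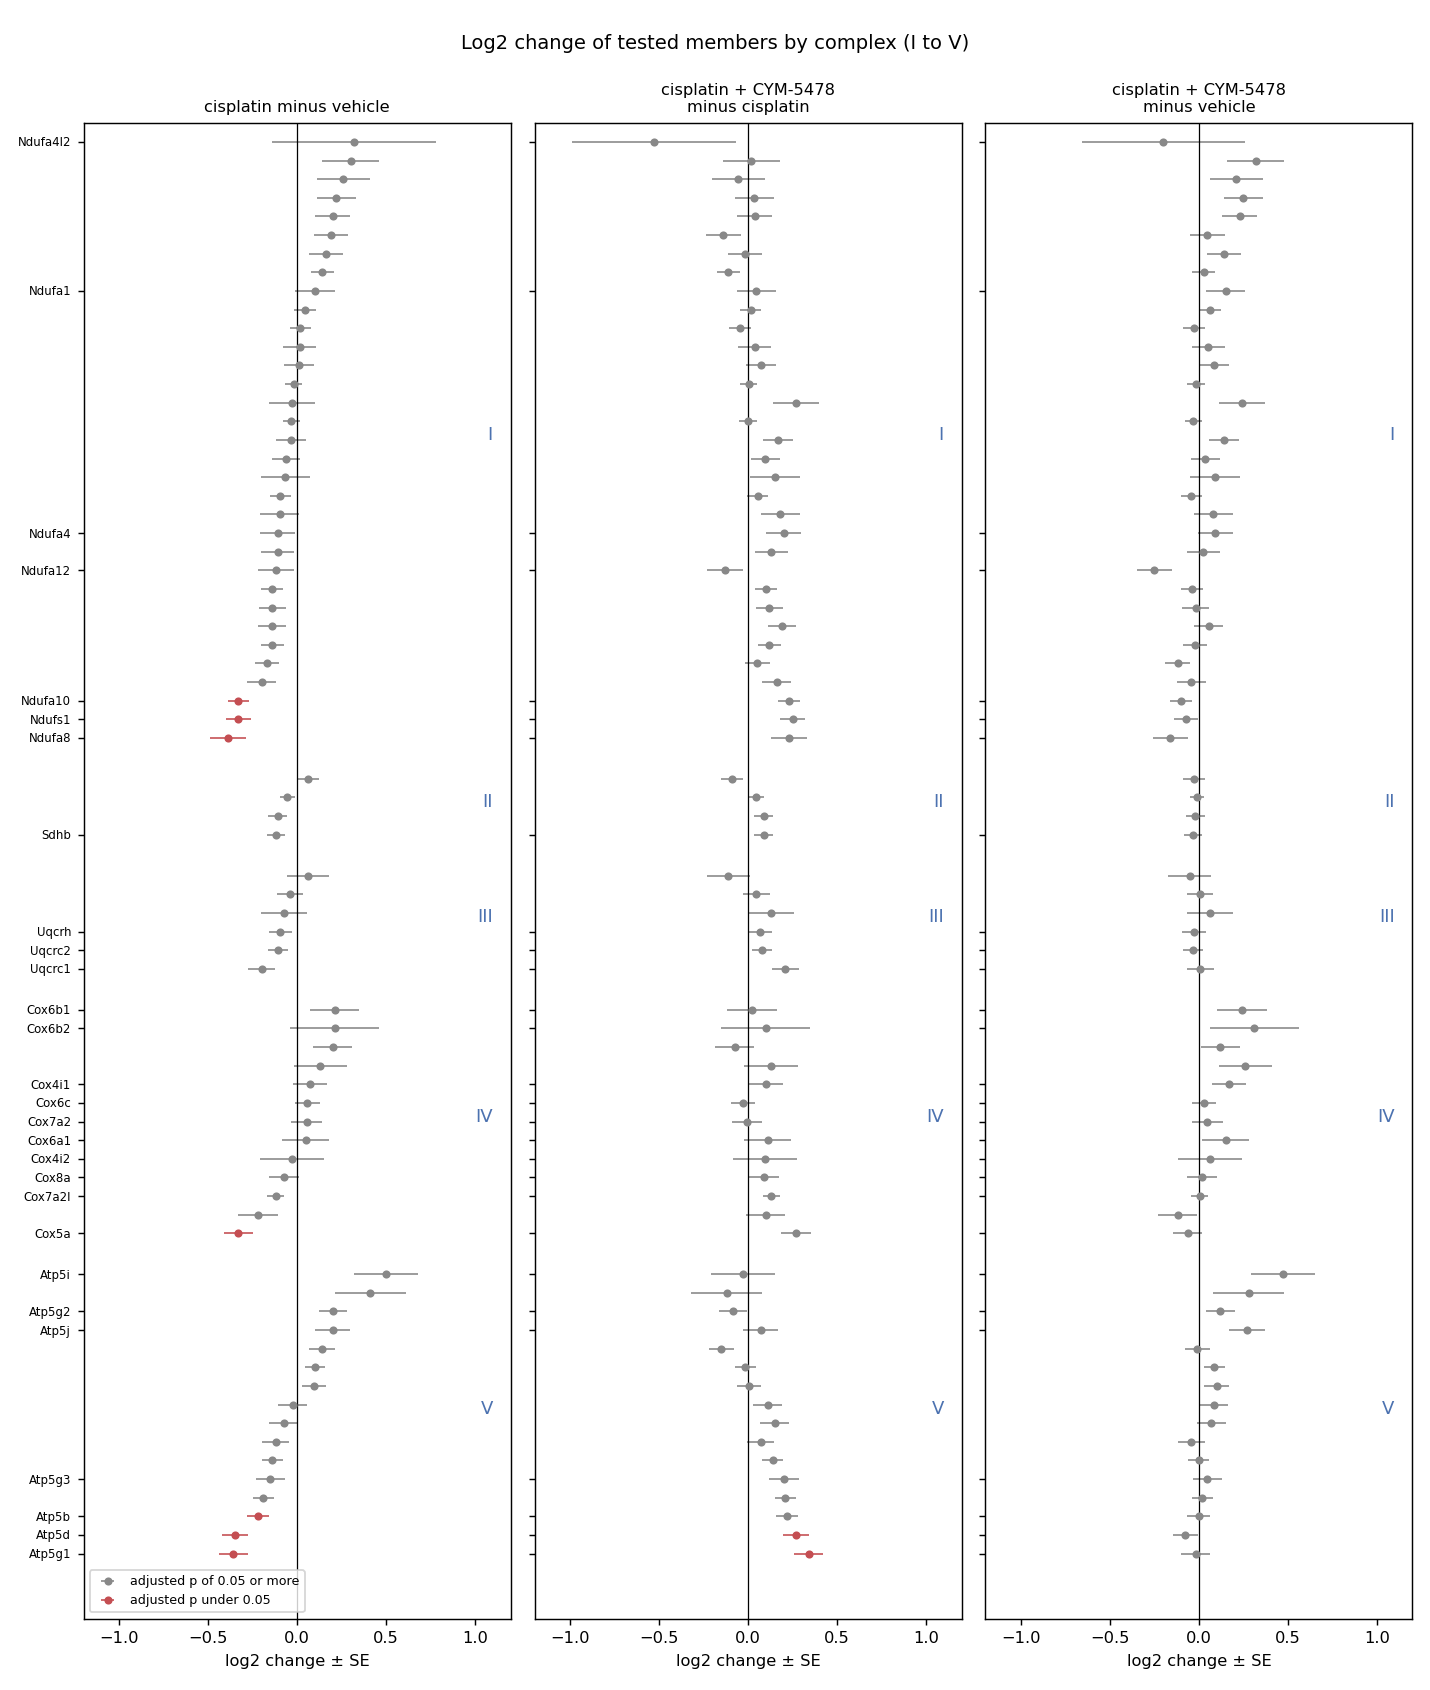
Fitted log2 change ± SE for tested members in the 3 comparisons, ordered within complexes I to V, with calls in red. Names mark called members, those of highest level or smallest p per complex, and isoform families. Of the 75, both Ndufs5 gene IDs and the second ID of Cox7a2 are left out for their wide errors, and most points lie within 0.25 of 0, with the 7 calls on the left, 2 in the middle panel and 0 on the right.

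The make-up of the c subunit transcripts was compared between the groups as shares, which were not tested. Atp5g1 made up 21.8%, 22.9%, 22.5% and 21.5% of their summed FPKM in vehicle replicates 1 to 4, 18.2%, 20%, 17.8% and 17.3% in cisplatin, and 22.3%, 19.7%, 20.7% and 21.7% in the combination group. Atp5g2 made up 29.9%, 25.6%, 27.6% and 30.9% in vehicle, 35%, 32.5%, 35% and 35.9% in cisplatin, and 28.9%, 30.8%, 29.6% and 29.5% in the combination group. For both genes the cisplatin and vehicle shares did not overlap, and combination replicate 2, at 19.7% for Atp5g1, fell within the cisplatin range. These shares do not depend on how libraries are scaled. By level, 11.5% of all tested genes were lower with cisplatin without overlap and 6.81% were higher.

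Group means were 22.2% ± 0.604, 18.3% ± 1.2 and 21.1% ± 1.11 for Atp5g1 and 28.5% ± 2.39, 34.6% ± 1.47 and 29.7% ± 0.803 for Atp5g2 in vehicle, cisplatin and combination (SD, n = 4 each). Atp5g3 held 49.3% ± 1.79, 47.1% ± 0.351 and 49.2% ± 0.41. The sum of the 3 genes was 533 ± 51.3, 503 ± 30.6 and 551 ± 29.5 FPKM, which overlap. Of the 3, Atp5g1 passed the test by level, while Atp5g2 (151 ± 14.2 and 174 ± 12.3 FPKM, log2 change 0.20, SE 0.08, limma adjusted p = 0.123) and Atp5g3 (263 ± 31.6 and 237 ± 15.5 FPKM, adjusted p = 0.278) did not. The promoters printed above differ in that the letters of NRF1 were found in those of Atp5g2 and Atp5g3 and not in that of Atp5g1. With cisplatin the mean of Atp5g2 was higher and that of Atp5g3 lower, and a link between these letters and the levels was not tested.

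**Figure D4:**
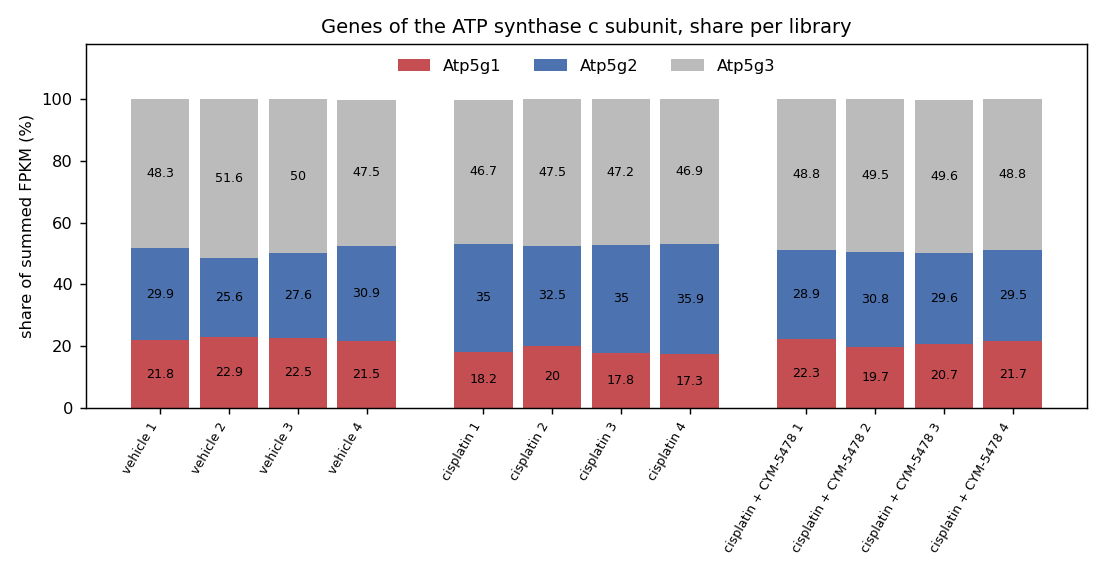
Share of Atp5g1, Atp5g2 and Atp5g3 in their summed FPKM (%), 1 stacked bar per library. Atp5g1 holds 17.3% to 20% in cisplatin against 21.5% to 22.9% in vehicle, and Atp5g2 32.5% to 35.9% against 25.6% to 30.9%.

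CYM-5478 with cisplatin against cisplatin alone, the comparison that asks what the agonist changed in treated rats, found 2 members higher and 0 lower. Both, Atp5d and Atp5g1, are in the ATP synthase and were among those lower with cisplatin. The share, 2.67%, was below the 4.53% of all tested genes called higher (1.09% were called lower, and 5.62% in either direction). At an unadjusted p under 0.05, 13 members were higher (17.3%, against 15% of all genes) and 0 lower (0%, against 9.56%). From the values given above, Atp5g1 rose by a log2 change of 0.34 (SE 0.082, limma adjusted p = 0.0407) and Atp5d by 0.27 (SE 0.071, adjusted p = 0.047), each higher in 4 of 4 libraries than any cisplatin library.

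The other 5 members that were lower with cisplatin did not pass here. Ndufa10 (log2 change 0.23, SE 0.061, limma adjusted p = 0.0516) and Ndufs1 (0.25, SE 0.069, adjusted p = 0.053) lay at the edge, followed by Atp5b (0.22, adjusted p = 0.0645), Cox5a (0.27, adjusted p = 0.0788) and Ndufa8 (0.23, adjusted p = 0.196). Both comparisons share the cisplatin libraries, so low values there enter each of them with opposite sign. The groups did not overlap for 10 members that were higher (13.3%, against 10.4% of all genes) and for 1 that was lower, Atp5e (1.33%, against 5.68%). The median log2 change over the members was 0.073, beside -0.016 over all genes, and 21 of 75 members (28%) lay below 0, against 53.3% of all genes.

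Leaving out any of vehicle replicates 1, 3 and 4, cisplatin replicates 1 and 4 or combination replicates 2, 3 and 4 left 0 members past the threshold, and the other 4 such fits gave 2 to 4. The calls of Atp5d and Atp5g1 were each lost in 9 of these 12 fits. With TPM, 18 members were higher and 0 lower, their median log2 change was 0.18 beside 0.084 for all genes, and 2525 genes were higher and 49 lower in place of 759 and 182.

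Against vehicle, the combination group had 0 members past the threshold, as 0 of all 16753 genes (0%) passed limma's test. At an unadjusted p under 0.05, 1 member was lower (1.33%, against 458 or 2.73% of all genes) and 4 higher (5.33%, against 512 or 3.06%). Log2 changes lay below 0 for 32 of 75 members (42.7%, against 50.3% of all genes). Ndufa12, an accessory subunit of complex I, was the lower one, at 94.8, 96.7, 89.6 and 88.2 FPKM in vehicle and 80, 74.4, 73.9 and 82.5 in the combination group, without overlap (log2 change -0.25, SE 0.1, limma adjusted p = 0.84). Atp5j, coupling factor 6 of the ATP synthase, measured 246, 256, 232 and 253 FPKM in vehicle and 288, 311, 335 and 265 in the combination group, again without overlap (log2 change 0.27, SE 0.099, adjusted p = 0.837). Non-overlap covered 1 member lower (1.33%, against 1.76% of all genes) and 2 higher, the other being Ndufa13 (2.67%, against 1.69%). A missed threshold does not show that the groups were alike.

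Some members varied widely within groups. The within-group SD of log2 values had a median of 0.12 over the members and 0.15 over all tested genes, and ran from 0.044 to 1.24. Ndufs5, an accessory subunit of complex I, stood at 2 levels within each group, at 12.4, 54.4, 49.3 and 51.4 FPKM in vehicle, 8.23, 13.6, 50.5 and 69.1 in cisplatin, and 10.9, 58.5, 17.9 and 10.1 in the combination group. A second gene ID with this symbol, ENSRNOG00000030585, was listed at 0 in the same 6 libraries in which Ndufs5 was below 20 FPKM, and at 1.14 to 2.88 FPKM in the other 6. The IDs thus went up and down together. As they share a symbol and may share reads, the levels of Ndufs5 are uncertain, and what sets the 2 levels was not tested.

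Ndufa4l2, a hypoxia-induced relative of Ndufa4, measured 21.9, 79.5, 24.6 and 36.7 FPKM in vehicle, 49.4, 29.7, 82 and 32.4 in cisplatin, and 38.6, 31.2, 15 and 49.1 in the combination group. Its high libraries were single rats of different groups. It held 22.1% ± 9.63, 27.6% ± 10.4 and 19% ± 7.38 of the summed Ndufa4 and Ndufa4l2 FPKM (SD, n = 4 each).

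Among the membrane subunits of the ATP synthase where its monomers join into dimers, Atp5i and Atp5j2 shared their low libraries among treated rats. Atp5i (subunit e) measured 472, 538, 458 and 527 FPKM in vehicle, 508, 832, 657 and 873 in cisplatin, and 520, 790, 813 and 675 in the combination group. Replicate 1 of both treated groups lay in the vehicle range and the other 6 treated libraries above it, with a log2 change of 0.50 for cisplatin (SE 0.18, limma adjusted p = 0.0903, and 0.65 with adjusted p = 0.0476 without cisplatin replicate 1). Atp5j2 (subunit f) measured 213, 229, 199 and 186 FPKM in vehicle, 185, 269, 311 and 362 in cisplatin, and 186, 289, 306 and 242 in the combination group, and Cox5b of complex IV showed the same low replicate 1 in both treated groups. Atp5l (subunit g) varied little, at 404, 420, 385 and 405 FPKM in vehicle, 419, 431, 431 and 451 in cisplatin, and 403, 447, 408 and 456 in the combination group. Replicate 1 was the lowest library of both treated groups for most members, as given below.

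**Figure D5:**
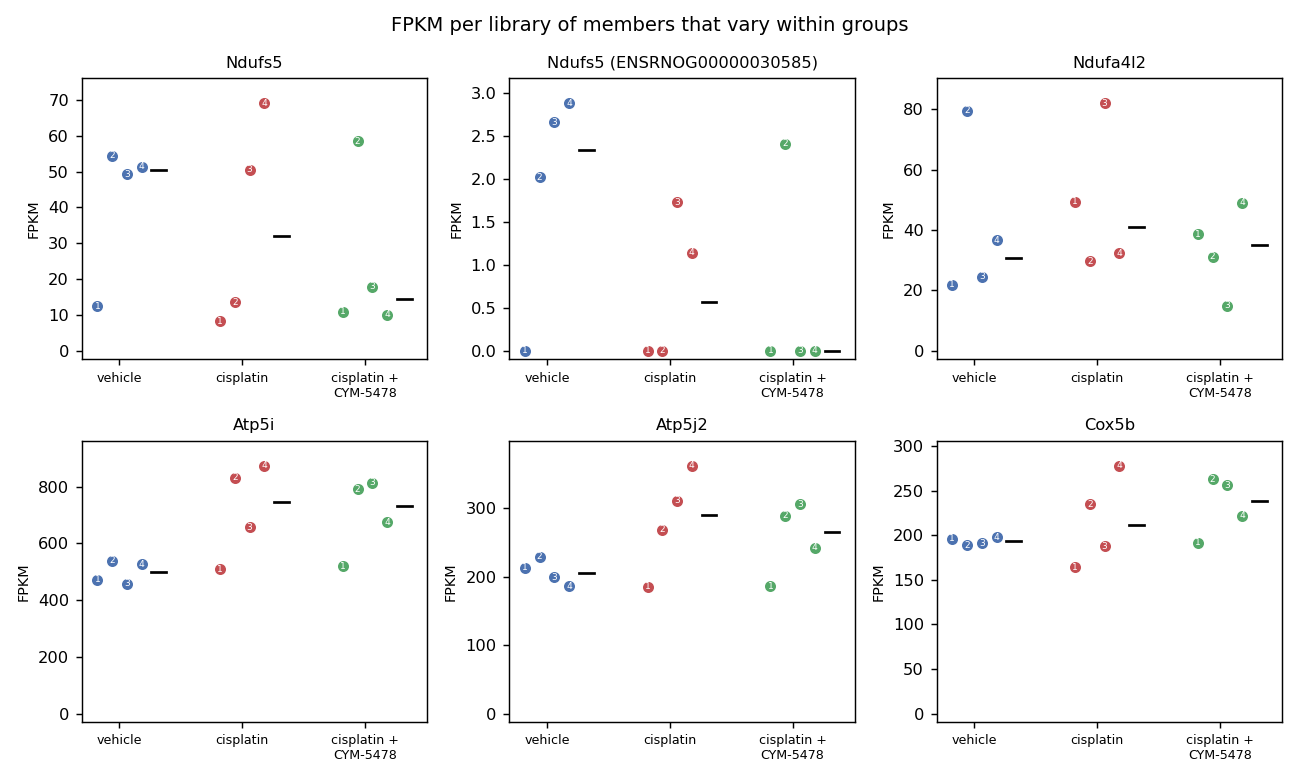
FPKM per library of 6 members that vary within groups, with replicate numbers in the points and a bar at the group median. Ndufs5 is low, at 8.23 to 17.9 FPKM, in the 6 libraries where its second ID is listed at 0, and Atp5i, Atp5j2 and Cox5b are lowest in replicate 1 of both treated groups.

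Over the 75 members, a few libraries held most of the extremes. Cisplatin replicate 1 was the lowest of its group for 53 members (70.7%, against 32.6% of all tested genes), combination replicate 1 for 47 (62.7%, against 27.8%), and vehicle replicate 2 was the highest for 57 (76%, against 30%). Leaving out either vehicle replicate 2 or cisplatin replicate 1 changed the calls as given above. So did leaving out cisplatin replicate 4, although it was the lowest of its group for 11 members (14.7%, against 24.8% of all tested genes). It was the highest of its group for 32 (42.7%, against 26.1%).

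Markers of neurons moved with these groups. The pan-neuronal score, which averages the log2 differences from vehicle of its 20 genes, was 0 ± 0.17 in vehicle, -0.63 ± 0.31 in cisplatin and -0.02 ± 0.17 in the combination group (SD, n = 4 each), and its summed level was 3067 to 5294 FPKM in cisplatin and 6206 to 7798 in the combination group. Of the 20 genes, 17 were lower with cisplatin and 10 higher with CYM-5478 added. The score was lowest in cisplatin replicate 1, at -1.06, and highest in vehicle replicate 2, at 0.25. Those libraries also held most of the low and high member values. In cisplatin replicates 2, 3 and 4 the score was -0.42, -0.40 and -0.64. There the median member log2 difference from the vehicle mean was 0.00355, -0.0128 and -0.00166, against -0.159 in cisplatin replicate 1. Whether member levels follow the score across libraries was not tested. In whole ganglia, fewer cells of a type and less RNA per cell cannot be told apart. A fit that adjusts for this score called 0 members in either comparison (20 and 8 at an unadjusted p under 0.05). It also called 0 of all tested genes in both, so the lost calls are not particular to the members. The median log2 change of the members in it was 0.11 with cisplatin and -0.078 with CYM-5478 added. Because the score differs between groups, adjusting for it can remove group differences too.

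Scores of other cell types in cisplatin were 0.33 ± 0.15 for myelinating Schwann cells (summed level 24779 to 30841 FPKM, against 19395 to 27523 in vehicle), 0.32 ± 0.087 for fibroblasts and matrix (4617 to 5507, against 3328 to 4227) and 0.33 ± 0.23 for macrophages (390 to 573, against 304 to 426). Of these lists, with 12, 10 and 12 genes, 0, 4 and 0 were called higher with cisplatin. The satellite glia score went the other way, at -0.11 ± 0.082 (2242 to 2559 FPKM, against 2541 to 2615), with 3 of 10 genes lower and 1 higher. Scores were 0.22 ± 0.17 for endothelial and 0.19 ± 0.22 for mural cells, each with 1 gene higher. Scores that varied more between libraries were 0.35 ± 0.43 for fat cells, 0.55 ± 0.75 for neutrophils and their precursors and 0.63 ± 0.68 for red blood cells, with 0 genes called. The skeletal muscle score, relevant to the muscle isoforms, was 0.35 ± 0.95 in cisplatin, with 31.3 to 124 FPKM against 49.1 to 63.3 in vehicle. No marker of these lists was listed at 0 throughout, and the part of any of them in the results was not tested.

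Genes that work with the complexes were read from lists of the pathway under the same fit and scaling, in which 7.98% of all tested genes were called lower and 2.73% higher with cisplatin, and 1.09% and 4.53% with CYM-5478 added. For cisplatin against vehicle, limma called 0 genes of the whole table without cisplatin replicate 4 (4086 at an unadjusted p under 0.05) and 3 without vehicle replicate 2, so the calls below rest on those libraries too. With CYM-5478 added it called 0 without vehicle replicate 1, cisplatin replicates 1 or 4 or combination replicates 2, 3 or 4 (3006 to 4020 at an unadjusted p under 0.05). Of 15 tested genes of the citric acid cycle, which feeds electrons to complexes I and II, 7 were lower with cisplatin, 1 was higher and 7 did not pass (median log2 change -0.18). The lower ones included Cs, citrate synthase, at 83.4 ± 3.26 and 72.8 ± 2.56 FPKM, and all 3 genes of the NAD-dependent isocitrate dehydrogenase, Idh3a (55.3 ± 4.31 and 44.9 ± 4.76), Idh3b (58.9 ± 3.53 and 49.9 ± 3.07) and Idh3g (52.5 ± 1.77 and 45.3 ± 2.12; SD, n = 4 each). Suclg2, a subunit of the GTP-forming succinyl-CoA ligase, was higher, at 33 ± 1.16 and 39.8 ± 3.1 FPKM. With CYM-5478 added, Cs and Idh3g were higher than with cisplatin alone, at 83.8 ± 4.36 and 51.4 ± 1.29 FPKM.

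Of 17 glycolysis genes, 8 were lower, 1 was higher and 8 did not pass (median -0.19). Eno2, the neuronal enolase, stood at 80 ± 7.66 and 55.7 ± 9.69 FPKM, Pkm, the last kinase of the pathway, at 268 ± 18.6 and 221 ± 20.3, and Hk2, a hexokinase, was the higher gene, at 6.32 ± 0.93 and 8.31 ± 0.515. With CYM-5478 added 6 were higher and 0 lower (median 0.23), Eno2 among them at 77.2 ± 3.98. Eno2 and Aldoc also stand among the neuron and satellite glia markers used here.

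Assembly factors build the complexes without being part of them. Of 13 assembly factors of complex I, Ecsit alone was lower with cisplatin, at 20.9 ± 0.371 and 16.8 ± 1.36 FPKM (SD, n = 4 each), at an adjusted p = 0.0202 by limma. Of 28 for the other complexes 5 were lower and 0 higher, among them Ttc19 and Bcs1l for complex III, Taco1 for complex IV and Atpaf1, which helps assemble the head of the ATP synthase (10.4 ± 1.12 and 8.12 ± 0.403 FPKM). Ttc19 and Lrpprc, an RNA-binding protein of mitochondria, were higher again with CYM-5478 added. Timmdc1, a complex I assembly factor, was lower in that comparison, at 19.4 ± 1.11 and 15.8 ± 0.131 FPKM.

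Of 19 genes for mobile carriers and nucleotide transport, the outer membrane channels Vdac1 (140 ± 7.05 and 112 ± 10.4 FPKM) and Vdac3 (150 ± 6.37 and 129 ± 5.51) were lower with cisplatin, and Vdac1 was higher with CYM-5478 added (137 ± 7.32). Of 18 regulators of mitochondrial biogenesis, Esrra (15.4 ± 0.595 and 12.9 ± 0.97) and Esrrb (1.23 ± 0.124 and 0.651 ± 0.139), both nuclear receptors of the ERR family, were lower with cisplatin, 0 were higher, and Esrra was higher with CYM-5478 added (15.6 ± 1.16). Tfb1m, a mitochondrial rRNA methyltransferase, was lower in the latter comparison. Among 61 mitochondrial ribosomal protein genes 2 were lower with cisplatin and 1, Mrpl20, was higher (25.3 ± 1.66 and 34.5 ± 4.46 FPKM), and 0 passed with CYM-5478 added. In the combination group against vehicle 0 genes of any of these lists passed.

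Subunits encoded in mitochondrial DNA summed to more FPKM than the nuclear members in every library. None of the 11 tested passed in any comparison (median log2 change 0.44 with cisplatin and -0.34 with CYM-5478 added). Their summed FPKM was 4.7, 3.75, 5.28 and 4.63 times that of the nuclear members in vehicle replicates 1 to 4, 5.36, 6.11, 5.49 and 6.36 times in cisplatin, and 4.48, 4.02, 4.42 and 3.53 times in the combination group. The cisplatin libraries lay above the other 8, and vehicle and combination overlapped. This ratio, 4.59 ± 0.63, 5.83 ± 0.478 and 4.11 ± 0.442 (SD, n = 4 each), does not depend on library scaling.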

How the data were processed

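The authors deposited 1 table that gives the FPKM of each transcript in each library. It was smaller than its listed size, so it may hold part of the transcripts. Per the submitters' processing notes, bcl2fastq 2.20, FastQC, Bowtie2 2.0.6, STAR 2.7.8a, DESeq2 and the build Rnor_6.0 were used, with no role given. Per the labels' protocols, rRNA-depleted RNA went into directional libraries. The program behind the FPKM is not given in the sources used here.

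FPKM were summed per gene (30275 transcripts, 25252 genes) and libraries were scaled by median ratios (to geometric means, using genes of mean 1 FPKM or more, with factors 0.9983 to 1.012). Limma 3.58.1 in R 4.3.3 fitted log2(FPKM + 0.5) of 16753 genes of mean 0.5 FPKM or more to 12 libraries in 3 groups (9 residual degrees of freedom, variance trend), and was tested on simulated data. Tables and figures used Python 3.11.15, pandas 2.3.3 and matplotlib 3.10.9. Replicate numbers are those of the sample descriptions. Depth in reads is unknown, so no counting interval is given.

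The members and lists were chosen with earlier results of these data known. Named are members past the threshold, the highest and the smallest p per complex, and isoform families. Other members were named for their level or spread after their values were seen. Pathway and marker lists held 195 and 124 symbols. Alternatives were pseudocounts, filters, scalings (none, TPM, quantile), protein-coding genes, the highest transcript, 8 libraries, replicate blocks, a neuronal covariate and single libraries left out. Promoters are from RefSeq tables for GRCr8, while no genome of the authors' build was used. Some nuclear subunit genes, such as Uqcr10 and Cox7a1, are not analysed here.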

Additional observations from a re-analysis of the deposited data

Results flagged for a closer look

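Each tested member and each complex sum was looked at within each group of 4 libraries (240 groups), and in 14 of them 1 library stood far from the other 3 by Dixon's test. Chance flags about 1 in 20 groups.

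Vehicle replicate 2 stood above the other vehicle libraries for 5 members. It was at 77.3 FPKM for Ndufa8 (others 59.3 to 60.9), 63.8 for Ndufa9 (51.5 to 52.9), 61.5 for Uqcrfs1 (58.5 to 58.9), 216 for Cox5a (183 to 188) and 106 for Atp5c1 (89.9 to 92.2). Ndufa8 and Cox5a are among the 7 members called lower with cisplatin, and without this library their log2 changes were -0.30 and -0.28 in place of -0.39 and -0.33 (limma adjusted p = 0.0923 and 0.0959). The other 5 lost their calls too, and 3 of all genes were called. Vehicle replicate 3 was low for Uqcrq, at 266 FPKM (319 to 324).

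Replicate 1 of the combination group was low for Ndufb5, at 37.2 FPKM (43.7 to 44.1), and for Atp5o, at 175 (195 to 196). Cisplatin replicate 1 was low for Atp5g3, at 214 FPKM (244 to 246). Cisplatin replicate 3 was high for Ndufs7, at 69.5 FPKM (63 to 63.5), and for Atp5sl, at 14.4 (12.3 to 12.7).

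Ndufs5 was low in vehicle replicate 1, at 12.4 FPKM (49.3 to 54.4), and high in combination replicate 2, at 58.5 (10.1 to 17.9). Its second gene ID, ENSRNOG00000030585, was at 2.41 FPKM in combination replicate 2 and listed at 0 in the other 3 libraries of that group.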

How the results depend on the processing

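For cisplatin against vehicle, TPM gave 3294 genes and 26 members called (member median -0.16), the 8 libraries of the 2 groups 961 and 3, and the neuronal covariate, whose gene count was added after seeing the data, 0 and 0 (median 0.11). Leaving out single libraries gave 0 to 1847 genes and 0 to 7 members, and the genes came to 3 when vehicle replicate 2 was dropped, 1167 for vehicle replicate 3, 643 for cisplatin replicate 1 and 0 for cisplatin replicate 4. For CYM-5478 added to cisplatin, no filter gave 2 genes and 0 members, a filter of 2 FPKM 4 members, no scaling 1, quantile normalization 5 and protein-coding genes 4. There TPM gave 2574 genes and 18 members (median 0.18), the 8 libraries 0 and 0, the covariate 0 and 0 (median -0.078), and single libraries left out 0 to 1085 genes and 0 to 4 members. For the combination group against vehicle, the 8 libraries called 1 gene and single libraries left out 0 to 2.

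Same-numbered samples did not all deviate together (correlations from -0.244 to 0.154), and the description and title numbers pair the rats differently. As a replicate block, the description numbers gave 1881 genes and 7 members for cisplatin against vehicle (6 lower without Atp5b, adjusted p = 0.0513 by limma, and Atp5i higher, adjusted p = 0.0412) and 1304 and 5 for CYM-5478 added. The title numbers gave 0 genes and 0 members in both comparisons, with uncalled changes that turned to 0.11 for Cox4i2 with cisplatin and to 0.0036 for Sdhb and 0.037 for Uqcrc2 in the combination group against vehicle.

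Other uncalled changes with cisplatin also turned. With TPM they were -0.05 for Cox4i1, -0.073 for Cox6a1, -0.063 for Cox6c, -0.067 for Cox7a2 and -0.02 for Ndufa1, and with quantile normalization -0.065 for Cox4i1, -0.091 for Cox6c and -0.019 for Cox7a2. With single libraries left out the range was -0.17 to 0.11 for Cox4i2, -0.00074 to 0.12 for Cox7a2, -0.03 to 0.15 for Cox6a1 and -0.17 to 0.00053 for Ndufa12, and -0.057 to 0.0067 for Uqcrc2 in the combination group against vehicle. Summed TPM in vehicle, cisplatin and combination were 5073, 4694 and 5183 for complex I, 508, 449 and 495 for II, 1513, 1349 and 1479 for III, 6476, 6067 and 6781 for IV, and 6709, 6557 and 7253 for V. The cause of these changes was not tested. Unknown depth, 4 rats a group and levels set by the FPKM sum limit how small a change could be called.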
